A study of Danio rerio with 54 samples.

Results

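Collagen genes were followed across 54 poly(A) RNA-seq libraries from whole zebrafish embryos and larvae. The set was taken by gene symbol: every row of the deposited table whose name begins with col, a number, the letter a and a number, in capitals or not. The rule found 60 of 31953 genes. Of these, 58 were collagen chains of 23 type numbers, and 2 rows, col4a3bpa and col4a3bpb, were not collagens: their symbols stand for a protein that binds a type IV collagen chain and carries ceramide between membranes. The 58 chains comprised 15 fibril-forming, 12 fibril-associated, 6 basement membrane, 6 type VII or XXVIII, 5 type VI, 5 short-chain, 4 multiplexin, 4 transmembrane and 1 type XXVI gene.

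The libraries fell into 18 groups of 3 pools, with 30 animals in a pool. Knockout animals carried an 8-base, frame-shifting TALEN deletion in exon 3 of nfe2, the gene of a cap'n'collar transcription factor. They were made on an AB/TL hybrid background, whereas wildtype animals were of the AB strain, so that the mutation and the strain background cannot be told apart in any knockout comparison. Animals of each genotype were dosed with 1 mM tert-butyl hydroperoxide (tBOOH, an organic peroxide), with 20 µM diquat (a redox-cycling herbicide) or with neither (water groups). Dosing began at 2, 48 or 96 hours post fertilisation (hpf), lasted 4 h and was followed by 4 h in 0.3x Danieau's solution. One label puts freezing 8 h after the start of dosing, and another gives RNA sampling at the starting age, so a stage means the age when dosing began. Whether pools came from separate clutches is not given in the sources used here. The p-values measure the spread between pools, taken as 1 value per gene over all groups of a fit. That spread was unequal between groups. A chi-square per gene, comparing reads between pools of a group, ranged from 1.36 in 48 hpf wildtype tBOOH pools to 9.72 in 48 hpf knockout tBOOH pools.

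Collagens are triple-helical proteins of the extracellular matrix, most of them secreted, while the transmembrane types span the cell membrane. Fibril-forming chains (types I, II, V, XI and XXVII here) build the fibrils of skin, tendon, bone, cartilage and the notochord sheath, and fibril-associated chains (types IX, XII, XIV, XVI and XIX among others) sit on the fibril surface. Type IV chains form the sheet of basement membranes, type VI makes beaded filaments around cells, and type VII makes the anchoring fibrils that hold the epidermal basement membrane to the tissue beneath. Procollagen is hydroxylated, folded by the chaperone Hsp47 and exported in COPII carriers before it is trimmed and cross-linked outside the cell. In the zebrafish embryo these genes are switched on with the notochord, skin, fins and head skeleton.

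Values are normalised counts, that is, whole reads divided by a size factor for each library. The recovered totals were 527073 to 1044504 reads per library, and their median was 3.09% of the depth the study states. Which strand the reads were counted on is not given in the sources used here. The mitochondrial light-strand gene mt-nd6 stood above the median of the other 12 mitochondrial mRNAs in 54 of 54 libraries. What strand does to the collagen values and ratios was not tested. Counts were not divided by transcript length, so levels of different genes are compared only as shares of reads. A change was called at an adjusted p under 0.05 in limma on log2(value + 1), fitted to all genes of a stage, and log2 changes are on that scale, which understates changes of low genes. The nfe2 transcript had 20 to 66 reads over each 2 hpf group and at most 6 over any later group. Because an 8-base deletion leaves a transcript to count, this level does not check the genotype labels.

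In total, 182055 reads fell on collagen genes, 6452 of them at 2 hpf, 108490 at 48 hpf and 67113 at 96 hpf. Reads were found for 54 of the 58 chains at 2 hpf and for all 58 at both later stages. The low-value filter, 10 normalised counts in at least 3 libraries, left 13 collagens to test at 2 hpf, 42 at 48 hpf, 42 at 96 hpf and 44 over all stages. A chain that passed only through the group in which it was high had to differ, so counts below are over the tested chains, not over the family. Fibril-forming chains took 117155 of the reads and fibril-associated chains 27999. The 5 short-chain genes took 1029, and the single type XXVI gene took 4.

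The collagen share of each library's reads ranged over 0.0325% to 0.0507% at 2 hpf, 0.366% to 1.07% at 48 hpf and 0.221% to 0.863% at 96 hpf. At 48 hpf the lowest, median and highest shares were 0.416%, 0.498% and 0.849% in knockout water pools, against 0.830%, 0.831% and 0.868% in wildtype water pools. At 96 hpf they were 0.317%, 0.317% and 0.406% in knockout water pools, against 0.688%, 0.843% and 0.863% in wildtype water pools, and these ranges did not overlap. With tBOOH at 96 hpf the shares were 0.221%, 0.223% and 0.241% in knockouts and 0.440%, 0.487% and 0.575% in wildtypes. In whole-animal RNA, fewer cells of a type and less RNA per cell cannot be told apart.

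**Figure D1:**
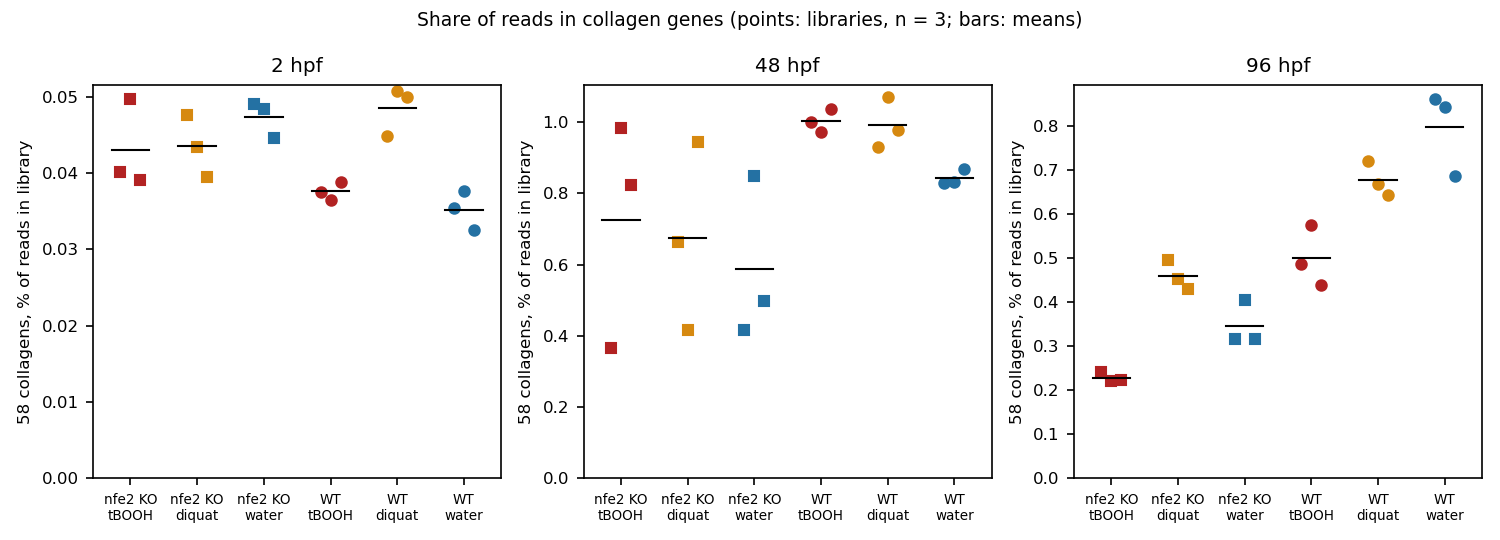
Percentage of each library's reads on the 58 collagen genes, by group, with 1 panel per stage on its own scale; points are pools. Shares stayed under 0.0507% at 2 hpf, spread widely among knockout pools at 48 hpf, and at 96 hpf were lowest in knockouts given tBOOH (0.221% to 0.241%).

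Knockout pools at 48 hpf stood apart from one another. Knockout water pool 2 was the highest of its 3 pools for 38 of 42 collagens (90.5%, against 39.5% of all genes), and pool 1 was the lowest for 35 (83.3%, against 38.6%). Knockout tBOOH pool 1 was the lowest of its group for 39 collagens (92.9%, against 39.2%). Knockout diquat pool 3 was the highest for 39 (92.9%, against 33.9%) and pool 2 the lowest for 36 (85.7%, against 36.4%). In the knockout tBOOH and water groups liver and muscle markers were lowest in the same pools. Values for the diquat pools and the other marker lists are not given here. The summed level of 14 liver genes was 84.6, 2058 and 1055 in the knockout tBOOH pools and 83.8, 911 and 105 in the knockout water pools, against 223, 166 and 254 in wildtype water pools. The summed level of 14 skeletal muscle genes was 8036, 13350.0 and 14104 in knockout tBOOH pools and 6197, 13257 and 7950.3 in knockout water pools, against 13909, 15008 and 14101 in wildtype water pools. None of the muscle genes and at most 2 of the liver genes had no read over a group. The part of these markers in the collagen values was not tested. For some collagen tests below, call counts without a pool named here are given too. Levels, medians, overlaps and list counts at 48 hpf are given with all pools unless a pool is named.

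Between 2 and 48 hpf the fibril-forming chains came on from almost nothing. In wildtype water pools, 42 of 44 tested collagens rose and none fell (38.3% of all tested genes rose and 20.2% fell). Within the 2 hpf libraries only 13 collagens passed the low-value filter. Most of the 44 thus passed with the help of later libraries in which they were high, which favours rises in this count. The members' median log2 change was 3.88, against 0.39 for all genes. The all-gene median was 0.28 after TMM rescaling, 0.046 in a fit of only the compared groups and 0.0058 without the low-value filter. It thus depends on the scaling and on which genes are tested. col1a1a, an α1 chain of type I collagen, had 869 ± 32.1 normalised counts at 48 hpf, against 1.34 at 2 hpf, where its 3 pools held 5 reads (log2 change 8.56 ± 0.29 SE). Its duplicate col1a1b had 764 ± 169 at 48 hpf, against 3 reads in all at 2 hpf, a 903-fold difference with an exact 95% counting interval of 308 to 4380-fold. The α2 chain gene col1a2 had 494 ± 59.4, against 1.11 at 2 hpf (8.001 ± 0.40), and col2a1a, the cartilage and notochord type II chain, had 444 ± 20.4, against 2.66 (7.07). Of the next largest rises, the type V gene col5a3b held 738 reads at 48 hpf against 2 at 2 hpf, and the type XI gene col11a2 held 382 against 1.

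Basement membrane and other chains rose as well. All 6 type IV genes rose, by 2.33 to 4.70 on the log2 scale. col4a1, an α chain of most basement membranes, had 25.0 ± 2.71 normalised counts at 48 hpf and no read in the 2 hpf water pools, which allows up to 0.810, so it was at least 30.9-fold higher. In the same way col28a1 was at least 17.6-fold higher, with 14.3 ± 5.17 at 48 hpf. col18a1, the multiplexin that yields endostatin, had 102 against 40.4 at 2 hpf (1.32). The 2 chains that passed no threshold were col17a1b, with 13.9 against 11.8, and col27a1a, with 4.75 against 1.61. In knockout water pools the same step took 37 of 44 collagens up and none down (38.9% of all genes up, 18.9% down), with a member median of 3.33. The limit set by the low-value filter holds for this count too. It had 34 calls without 48 hpf knockout water pool 2 and 37 without pool 1.

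Between 48 and 96 hpf, changes in wildtype water pools went both ways, in shares near those of all genes. Of 44 tested chains 8 rose (18.2%, against 19.7% of all genes) and 4 fell (9.09%, against 8.3%). The all-gene median moved by 0.20, or 0.08 after TMM rescaling. The short-chain gene col10a1a, of hypertrophic cartilage and, in zebrafish, bone-forming cells, had 51.4 ± 14.3 normalised counts at 96 hpf, against 3.28 ± 1.79 at 48 hpf (log2 change 3.67 ± 0.61, limma adjusted p = 3.61e-06). Of 4 type VI genes tested 3 rose: col6a3 had 82.3 against 22.1 (1.89), col6a2 132 against 39.8 (1.72), and col6a1 199 against 68.4 (1.53). The fourth, col6a6, had 58.3 against 39.3 without passing (limma adjusted p = 0.233). The fibril-associated col9a1a, of cartilage fibrils, had 91.7 against 34.3 (1.36).

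Of the smaller rises, the fibril-associated col19a1 had 13.8 at 96 hpf against 4.59 at 48 hpf, and col12a1a had 87.7 against 40.5. col17a1a, a hemidesmosome collagen of basal keratinocytes, had 166 against 97.7. Each of these 3 calls was lost when some single pools were left out. The falls were in COL28A1, with 17.2 against 68.8 (log2 change −1.89), col4a3, with 6.76 against 23.8 (−1.72), col7a1, with 37.2 against 75.2 (−1.03), and col4a6, with 116 against 179 (−0.62). The calls of col7a1 and col4a6 were lost without some single pools, col4a6 without any of the 6. No fibril-forming chain passed in either direction: col1a1a had 907 against 869.

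In knockout water pools the same later step took 2 chains up and 5 down (14% of all genes rose and 5.66% fell). col1a1a had 331 at 96 hpf against 660.5 at 48 hpf (log2 change −0.96), col18a1 29.6 against 57.1 (−0.85), col4a6 64.0 against 111 (−0.76), and col7a1 13.0 against 27.8 (−0.98). The fifth fall was in col4a5 (−0.84). The rises were col10a1a, with 5.75 against 2.71, and the multiplexin col15a1b, with 31.2 against 14.7. Leaving out 1 pool at a time left 1 to 6 calls, 1 without 96 hpf knockout water pool 1, 2 without 48 hpf pool 2 or 96 hpf pool 3, and 4 without 96 hpf pool 2. All 7 calls were lost in at least 1 of these fits.

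**Figure D2:**
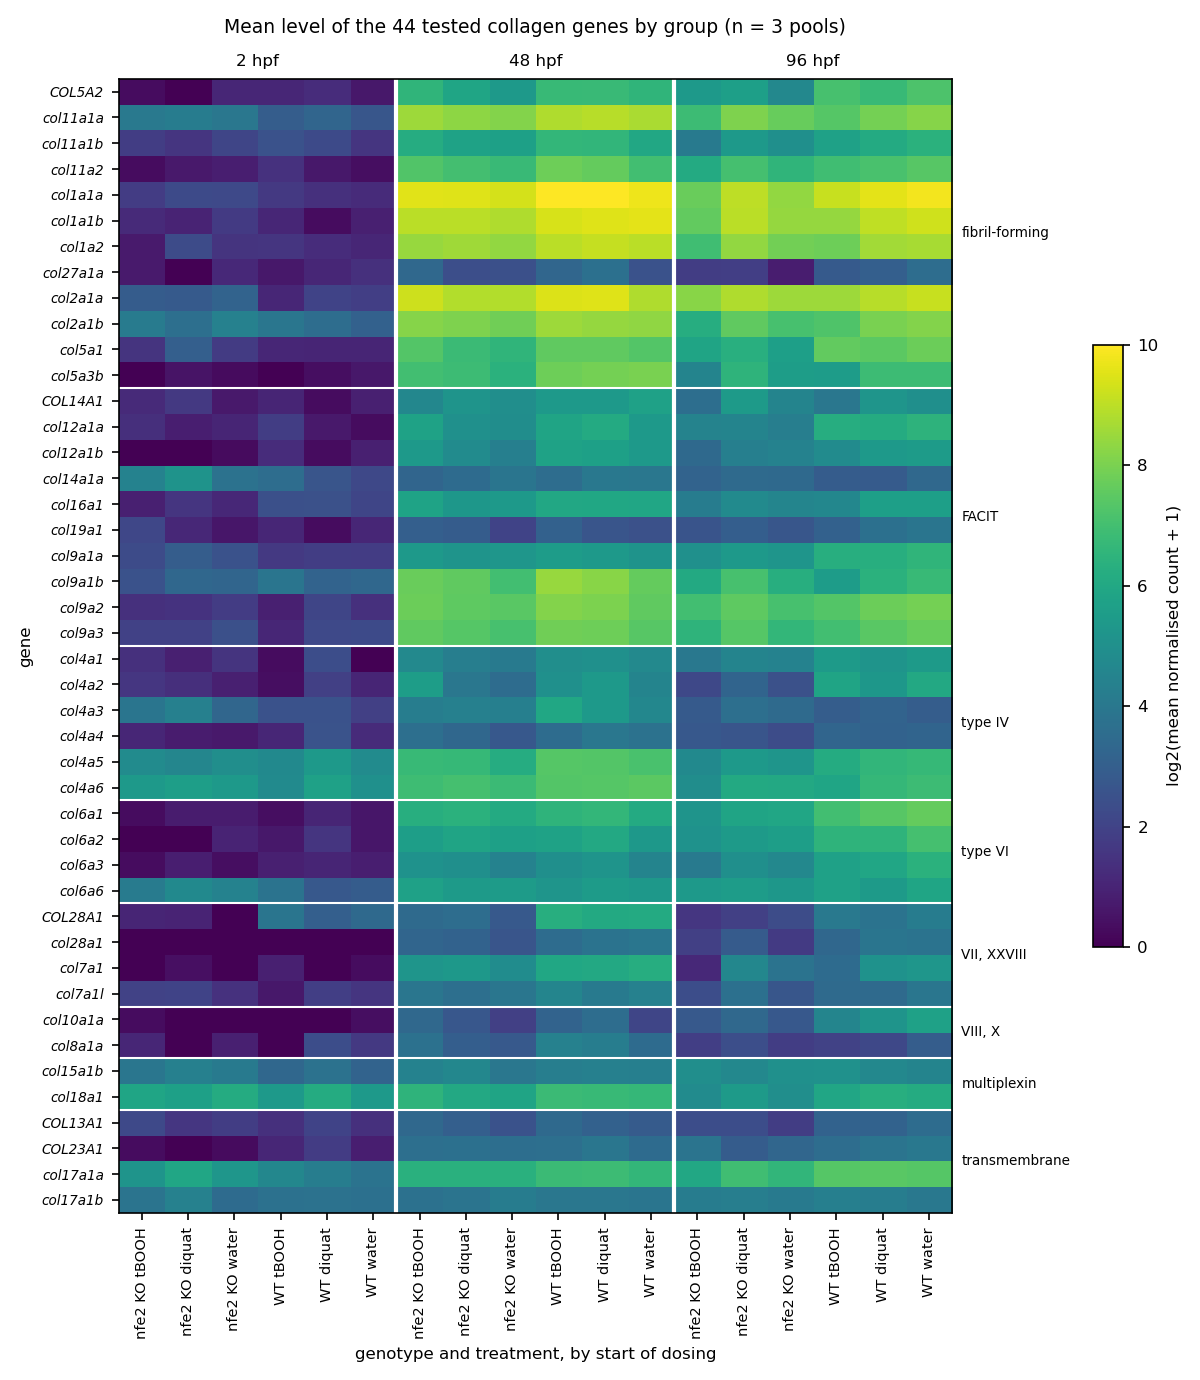
Heat map of log2(mean normalised count + 1) for the 44 collagens tested over all stages (rows, by structural class) in the 18 groups (columns). Most rows are brighter at 48 and 96 hpf than at 2 hpf, and col1a1a averaged 1.34, 869 and 907 normalised counts at the 3 stages in wildtype water pools.

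The genotype difference with the most collagen calls was that at 96 hpf. In water pools 34 of 42 tested collagens were lower in knockouts than in wildtypes and none was higher, whereas 13.1% of all 11436 tested genes were lower and 9.92% higher. Chains near the low-value filter could pass it through wildtype pools in which they were high, which favours falls in this count. The median log2 difference of the 42 was −1.16, and that of all genes was 0.04. All 3 knockout pools lay below all 3 wildtype pools for 36 of 42 collagens, which held for 21.4% of all genes. Leaving out each pool in turn gave 28 to 33 calls, and 28 of the 34 chains were called in every one of those fits.

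Type I chains, which took the most reads, were all lower. col1a1a had 285, 369.7 and 339 normalised counts in knockout water pools, against 930.5, 939 and 853 in wildtype water pools (log2 difference −1.46 ± 0.18 SE, limma adjusted p = 8.54e-07). col1a1b had 303, 391 and 324 in knockouts, against 669, 627 and 594 in wildtypes (−0.90 ± 0.19). col1a2 had 237, 231 and 228 in knockouts, against 459, 411 and 365 in wildtypes (−0.82 ± 0.18, limma adjusted p = 0.00137). The highest knockout pool was below the lowest wildtype pool for each of the 3 genes.

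The type II genes of cartilage and notochord were lower too. col2a1a had 361, 461 and 307 in knockouts, against 655, 588 and 488 in wildtypes (−0.63 ± 0.17, limma adjusted p = 0.00838), and its call was lost without wildtype water pool 1 or knockout water pool 3. col2a1b had 129.5, 148 and 134 in knockouts, against 323, 289 and 242 in wildtypes (−1.04 ± 0.17). Groups did not overlap for either gene. Type XI genes, whose chains form mixed fibrils with type II in cartilage, fell by 0.54 (col11a1a), 0.90 (col11a2) and 1.38 (col11a1b) on the log2 scale, and the col11a1a call was lost in 4 of 6 fits without 1 pool.

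Type V chains start type I fibrils and limit their width. Of their genes, COL5A2 (ENSDARG00000031678) had 27.4, 25.1 and 21.2 normalised counts in knockout pools, against 152, 144 and 141 in wildtype pools (−2.53 ± 0.22, limma adjusted p = 9.82e-10). col5a1 had 37.3, 62.7 and 48.0 in knockouts, against 233, 237 and 177 in wildtypes (−2.12 ± 0.23). col5a3b averaged 46.1 in knockouts, against 114 in wildtypes (−1.30). All 12 tested fibril-forming genes were lower, with a median of −1.17. The least abundant of them, col27a1a, held 2 reads in knockouts, against 33 in wildtypes, 14.95-fold lower with an exact 95% counting interval of 3.82 to 129-fold.

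Fibril-associated chains passed in 7 of 10 cases (median −1.08). col12a1a, of tendon and skin fibrils, had 17.6, 25.1 and 12.3 in knockouts, against 101, 92.8 and 69.6 in wildtypes (−2.24 ± 0.26, limma adjusted p = 2.43e-07). Its duplicate col12a1b fell by 1.096 on the log2 scale, and col16a1 averaged 22.4 in knockouts, against 49.0 in wildtypes. The cartilage type IX genes col9a1a, col9a2 and col9a3 averaged 36.3, 135 and 97.5 in knockouts, against 91.7, 242 and 203 in wildtypes. col9a1b, with 76.8 against 106, and the type XIV genes passed no threshold. The seventh call, col19a1 (−1.30, limma adjusted p = 0.0493), was lost in 5 of 6 fits without 1 pool.

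The largest log2 difference of the 42 chains was in a network collagen. col4a2, the basement membrane α2 chain, had 5.49, 6.27 and 2.23 in knockout pools, against 77.5, 68.8 and 47.1 in wildtype pools (−3.59 ± 0.46, limma adjusted p = 1.08e-06). Its partner col4a1 had 24.1, 20.9 and 16.7 in knockouts, against 49.2, 49.0 and 28.9 in wildtypes (−0.98 ± 0.26). In the second pair, col4a5 had 42.8, 41.8 and 25.7 in knockouts, against 112, 119.5 and 82.5 in wildtypes (−1.50 ± 0.23), and col4a6 fell by 0.85 on the log2 scale. The type IV gene that did not pass was col4a3, with 10.01 in knockouts and 6.76 in wildtypes.

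Type VI filaments were represented by 3 lower genes of 4. col6a3 had 24.1, 30.3 and 18.96 in knockouts, against 79.6, 90.3 and 77.1 in wildtypes (−1.73 ± 0.22), col6a1 had a difference of −1.71 ± 0.30 and col6a2 one of −1.46. The fourth, col6a6, had 38.4 in knockouts and 58.3 in wildtypes (−0.56, limma adjusted p = 0.0619). The anchoring fibril gene col7a1 had 15.4, 11.49 and 12.3 in knockouts, against 39.8, 26.7 and 45.0 in wildtypes (−1.42 ± 0.31). The other type VII and XXVIII genes tested, col7a1l, COL28A1 and col28a1, fell by 1.28, 2.05 and 2.38. The call of col7a1l was lost in 4 of 6 fits without 1 pool, and that of COL28A1 was lost without knockout water pool 3.

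Among the remaining classes, col10a1a had 5.49, 7.31 and 4.46 in knockout pools, against 66.0, 50.7 and 37.5 in wildtype pools (−2.94 ± 0.45, limma adjusted p = 2.07e-05). col18a1 averaged 29.6 in knockouts, against 71.0 in wildtypes (−1.23), and col17a1a averaged 94.1 against 166 (−0.81). COL13A1 also passed (−1.76), but its call was lost in 5 of 6 fits without 1 pool. The multiplexin col15a1b did not pass, with 31.2 in knockouts and 21.7 in wildtypes (0.50, limma adjusted p = 0.205).

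**Figure D3:**
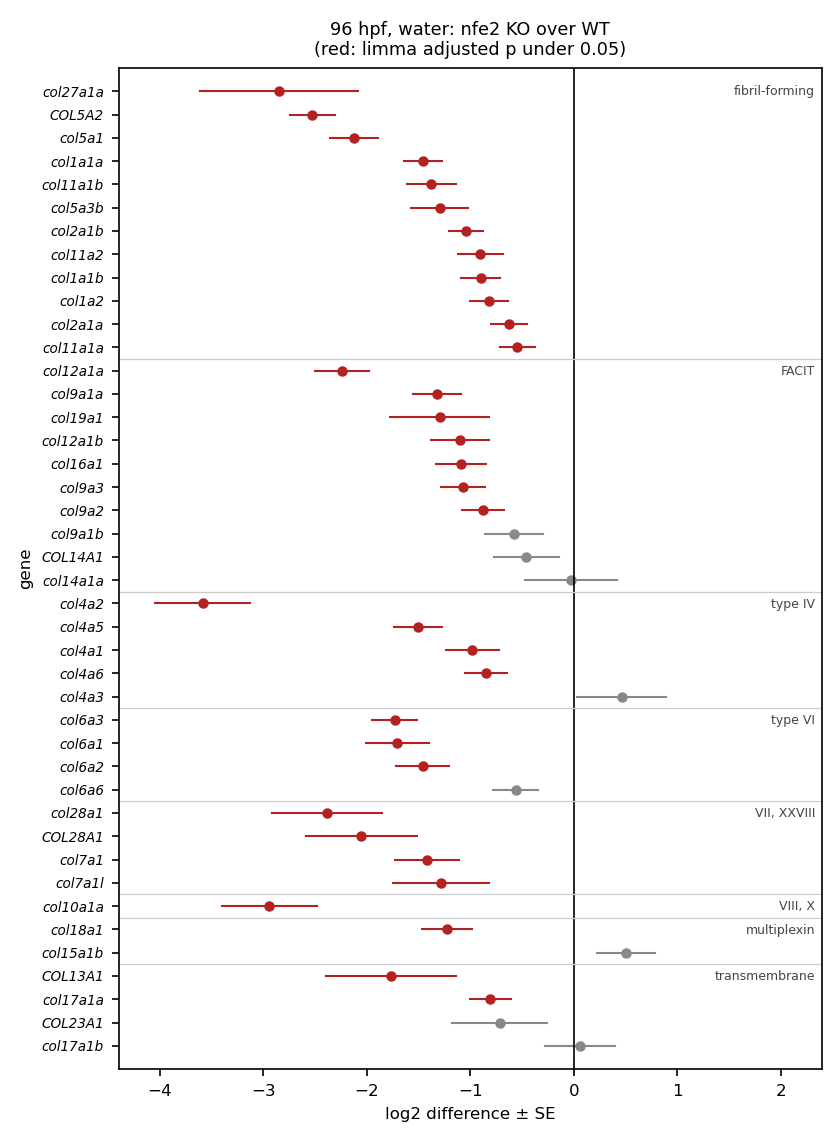
Log2 difference, knockout over wildtype, in 96 hpf water pools for the 42 tested collagens by class, on log2(value + 1); bars are standard errors from limma, n = 3 pools per group, and red marks an adjusted p under 0.05. All but 3 points lie left of 0, with col4a2 at −3.59, and col15a1b is at 0.50.

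Partner and duplicate chains were also compared as ratios of reads within each library, which no scaling between libraries affects. At 96 hpf col4a2/col4a1 was 0.227, 0.300 and 0.133 in knockout water pools, against 1.57, 1.40 and 1.63 in wildtype water pools. The ratio col1a1b/col1a1a lay at 0.954 to 1.06 in knockouts, against 0.668 to 0.718 in wildtypes, and col1a2/col1a1a at 0.624 to 0.831, against 0.428 to 0.493. For col2a1b/col2a1a the ranges were 0.322 to 0.436 in knockouts and 0.491 to 0.496 in wildtypes. For the neighbours col4a6/col4a5 it was 1.38 to 2.70 in knockouts and 0.964 to 1.32 in wildtypes. The ranges of these 5 ratios did not overlap between genotypes. For levels of single genes, all knockout pools lay above all wildtype pools in 22.1% of all genes and below them in 21.4%. No such share was computed for ratios. The other 3 ratios computed overlapped: COL5A2/col5a1 was 0.400 to 0.735 in knockouts and 0.605 to 0.800 in wildtypes, col6a1/col6a3 was 1.97 to 3.47 in knockouts and 2.17 to 2.82 in wildtypes, and col11a1a/col2a1a was 0.508 to 0.600 in knockouts and 0.472 to 0.579 in wildtypes. These pairs are a description, since some of their genes were chosen after their values were seen. Also, 3 pools against 3 cannot give a two-sided exact permutation p under 0.10.

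At 48 hpf the col4a2/col4a1 ratio varied among knockout pools, at 0.167, 2.06 and 2.17 with tBOOH, 0.944, 0.333 and 0.929 with diquat and 0.286, 1.04 and 0.348 in water, against 0.939, 0.647 and 1.07 in wildtype water pools. The lowest ratio of each knockout group was in the pool that stood lowest for most collagens, pool 1 with tBOOH and in water and pool 2 with diquat. At 48 hpf 4 of the 8 ratios did not overlap between water pools of the genotypes. For levels of single genes, all knockout pools lay above all wildtype pools in 11.6% of all genes and below them in 9.2%. No such share was computed for ratios. For col2a1b/col2a1a the range was 0.484 to 0.504 in knockouts, against 0.673 to 0.797 in wildtypes, and for col11a1a/col2a1a it was 0.487 to 0.722, against 0.839 to 1.19. COL5A2/col5a1 was 0.448 to 0.463 in knockouts, against 0.512 to 0.623 in wildtypes. The ratio col1a1b/col1a1a was 0.615 to 0.752 in knockouts, against 0.760 to 1.07 in wildtypes. In water it was thus lower in knockouts at 48 hpf and higher at 96 hpf. In wildtypes at 48 hpf it was 0.690 to 0.725 with diquat and 0.653 to 0.676 with tBOOH, inside the knockout water range. Both groups also lay below wildtype water pools for col2a1b/col2a1a (0.427 to 0.516 and 0.469 to 0.553). So they did for col11a1a/col2a1a (0.622 to 0.714 and 0.582 to 0.732). For COL5A2/col5a1 they lay above knockout water pools (0.514 to 0.653 and 0.520 to 0.598). Wildtype water pool 2, the library with the fewest reads, gave the highest of its 3 values for all 4 ratios.

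**Figure D4:**
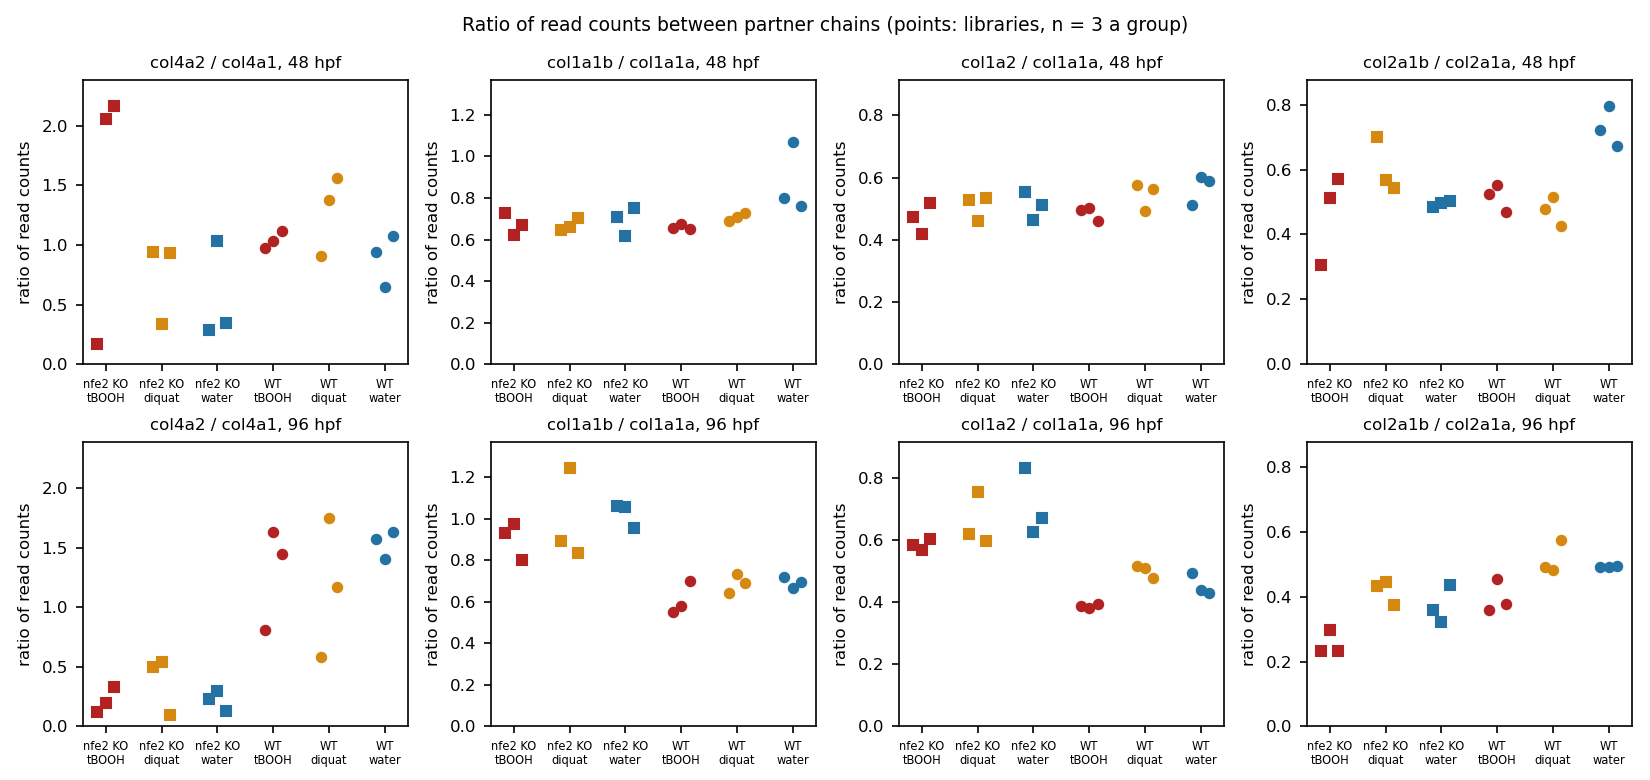
Ratios of reads between partner or duplicate collagen genes within each library at 48 and 96 hpf; points are pools, 3 per group. At 96 hpf the col4a2/col4a1 ratio of knockout water pools (0.133 to 0.300) lies below that of wildtype water pools (1.40 to 1.63).

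Genes that make, modify and break down collagen were counted in lists beside the 96 hpf genotype difference. Of 15 tested folding and secretion genes, 1 was higher (6.67%, against 9.92% of all genes) and 2 were lower (13.3%, against 13.1%), shares near those of all genes. The higher one was serpinh1b, which encodes the collagen chaperone Hsp47, with 89.3 ± 6.03 in knockouts, against 33.2 ± 4.77 in wildtypes (1.41 ± 0.25, limma adjusted p = 0.000109). The lower ones were sec24d, a COPII coat gene, with 2.18 in knockouts against 15.5 in wildtypes, and fkbp9, a prolyl isomerase of the endoplasmic reticulum, with 11.9 against 47.1. The fkbp9 mean in wildtypes rests on pools at 83.8, 36.1 and 21.4. Of 9 hydroxylase genes limma called plod3 alone, lower with 16.4 against 29.9 (11.1% of the list), and edgeR called 2. Of 9 processing and cross-linking genes, pcolcea, an enhancer of procollagen trimming, was lower, with 1.78 against 16.97, and pcolce2b was higher, with 85.1 against 55.0 (11.1% of the list in each direction). The calls of fkbp9, plod3 and pcolce2b were each lost in at least 1 fit without 1 pool.

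Of 13 tested genes of collagen degradation, a list that also holds inhibitors and an uptake receptor, 5 were lower (38.5%, against 13.1% of all genes). None was higher (9.92% of all genes), and all 5 lower ones are proteases. The lysosomal protease gene ctsla averaged 182 in knockouts, against 418 in wildtypes (−1.19 ± 0.16), and mmp2 11.9 against 39.1. Of 26 fibril-associated matrix proteins 15 were lower (57.7%) and 1 higher, led by fn1b (fibronectin; 32.5 in knockouts, 109 in wildtypes) and postna (periostin; 8.57 and 62.4). Of 15 basement membrane partners 6 were lower (40%) and 1 higher, with the laminin gene lamc1 at 17.6 in knockouts and 48.3 in wildtypes. Of 7 collagen receptor genes 2 were lower, itgb1a with 5.68 against 26.6 and itgb1b with 1.78 against 12.6. Of 13 regulators of collagen genes, sox5 was higher, with 52.2 against 26.2, and ctgfa lower, with 23.6 against 42.6 (7.69% of the list in each direction), the second call lost in at least 1 fit without 1 pool. Of the other calls in these lists, 3 of the 6 falls and the rise among basement membrane partners were lost in at least 1 such fit, and 7 of the 15 falls among the matrix proteins.

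Markers of tissues that make collagen, and of others, were counted in the same pools. In this comparison 13.1% of all genes were lower in knockouts and 9.92% higher. Summed cartilage markers (15 genes) were 583, 617 and 599 in knockout pools, against 676, 664 and 625 in wildtype pools, with 1 of 9 tested higher and 3 lower. Fibroblast and tendon markers (20 genes) summed to 243, 299 and 199.7 in knockouts, against 374, 396 and 322 in wildtypes, with 2 of 8 lower. Notochord markers (7 genes) summed to 272, 299 and 329 against 321, 330.1 and 339.5, with 2 of 4 lower. Bone markers (12 genes) summed to 428, 439.6 and 422 against 580.5, 584 and 574, and the mineralisation gene entpd5a, 1 of the 4 tested, averaged 0.372 in knockouts against 15.8 in wildtypes. Basal epidermis markers (14 genes) summed to 4328, 4616 and 3753 against 5464, 5468 and 5422, with 4 of 12 lower. All 4 of these epidermal calls, both of the fibroblast and tendon calls and 2 of the 3 cartilage falls were lost in at least 1 fit without 1 pool.

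Outside the connective tissues, skeletal muscle markers summed to 16777, 17722 and 15487 in knockouts, against 14369.7, 13778 and 13462 in wildtypes, with 2 of 12 higher, both lost in at least 1 fit without 1 pool, and none lower. The 14 liver markers summed to 519, 609 and 469 in knockouts, against 3046, 2965 and 3083 in wildtypes, and all 12 tested were lower. In wildtype water pools at 48 hpf the liver sum was 223, 166 and 254. Of 4 tested genes each, 1 endothelial marker and 1 macrophage or neutrophil marker were lower. Among all genes 13.1% were lower in knockouts and 9.92% higher. In either 96 hpf water group at most 2 genes of each list summed here had no read. The part of these tissues, or of a difference in age, in the collagen values was not tested.

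At 48 hpf the genotype difference in water passed for 2 of 42 collagens, both lower in knockouts, and none was higher (0.977% of all genes were lower, 1.51% higher). COL28A1 (ENSDARG00000076321), of type XXVIII, had 3.90, 4.88 and 8.80 normalised counts in knockout pools, against 67.3, 45.5 and 93.6 in wildtype pools (−3.35 ± 0.31, limma adjusted p = 1.58e-06). col7a1 had 24.3, 39.8 and 19.2 in knockouts, against 68.2, 83.6 and 73.7 in wildtypes (−1.46 ± 0.32, limma adjusted p = 0.0193), and the groups did not overlap for either gene. The col7a1 call was lost without wildtype water pool 2 or 3 or knockout water pool 1 or 3. Without knockout water pool 2, the pool highest for most collagens, 12 chains were called (share of all genes called in that fit not given here).

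Of the major chains, col1a1a and col2a1a overlapped at this stage with all pools. For both genes the overlap rests on knockout water pool 2, and the other knockout pools lay below all wildtype pools. col1a1a had 520.0, 878 and 583 in knockouts and 834, 898 and 874 in wildtypes, and col2a1a had 339.9, 625 and 422 in knockouts and 423, 447 and 463 in wildtypes. For col1a1b the knockout pools, at 369, 540.0 and 438, lay below the wildtype pools, at 668, 959 and 664, and for col1a2 at 288, 407 and 298 below 428, 541 and 515, without passing. For col4a1 the values were 6.82, 22.8 and 18.4 in knockouts and 27.8, 24.9 and 22.4 in wildtypes, and for col4a2 1.95, 23.6 and 6.40 and 26.1, 16.14 and 24.03. The median over the 42 chains was −0.59, and all 3 knockout pools lay below all wildtype pools for 11 of them, which held for 9.2% of all genes. Among all genes 0.977% were lower and 1.51% higher in this comparison. Of 17 folding and secretion genes 2 were lower and none higher, fkbp9 with 41.4 in knockouts against 95.5 in wildtypes and the chaperone gene hspa5 with 183 against 308. Of 11 hydroxylase genes the prolyl 3-hydroxylase gene p3h1 was lower, with 16.02 against 38.8. Of 10 genes of collagen degradation the protease gene ctsba was higher, with 173 in knockouts against 82.3 in wildtypes. Of 16 basement membrane partners nid1a was lower, with 15.5 against 37.5, and of 27 fibril-associated matrix proteins matn1 was higher, with 24.5 against 6.40. The ctsba call held in every fit without 1 pool, and the other 5 calls were each lost in at least 1.

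At 2 hpf few collagen reads were present. col18a1, col4a6, col17a1a, col4a5, col6a6 and col14a1a were the 6 highest chains. In water, 8 of 13 tested chains were higher in knockouts and 1 was lower, against 15.9% of all genes higher and 15.4% lower. Several of the higher chains lay under 10 normalised counts in the wildtype water pools, and so passed the low-value filter through other groups. In a fit of only the compared groups, 8 chains passed the filter and 4 were called (share of all genes in that fit not given here). The members' median was 1.12, and that of all genes −0.02. All knockout pools lay above all wildtype pools for 7 chains (21.6% of all genes). col18a1 had 73.2, 72.0 and 64.3 in knockout pools, against 46.0, 36.3 and 38.9 in wildtype pools (0.78 ± 0.19, limma adjusted p = 0.00253). col17a1a had 38.7, 23.7 and 48.7 in knockouts, against 14.6, 12.1 and 13.0 in wildtypes (1.37 ± 0.30, limma adjusted p = 0.00111). col2a1b had 16.2, 22.8 and 21.1, against 6.13, 9.68 and 6.91 (1.30), and col6a6 had 19.7, 20.05 and 22.95, against 7.66, 2.42 and 9.50 (1.69). None of these 4 genes overlapped between groups.

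The other higher chains at 2 hpf were col11a1a, with 14.7 in knockouts against 5.38 in wildtypes, col14a1a, with 12.6 against 3.54, col4a3, with 8.90 against 2.67, and col15a1b, with 15.9 against 8.09. The col14a1a call was lost without wildtype water pool 1 or knockout water pool 3, the col4a3 call without pool 3 of either group, and the col15a1b call (limma adjusted p = 0.0403) in 4 of 6 such fits. The type IV genes with the most reads were close: col4a6 had 32.4, 52.9 and 36.7 in knockouts and 34.5, 36.3 and 25.0 in wildtypes, and col4a5 had 31.7, 28.2 and 30.3 and 24.5, 31.5 and 25.9. COL28A1 was lower, with no read in knockout water pools, which allows up to 0.832 normalised counts, against 8.43, 7.26 and 13.8 in wildtype water pools. It was thus at least 11.8-fold lower. COL28A1 passed the low-value filter through wildtype libraries only, so its selection favoured a lower value in knockouts and its limma call adds no support. In knockouts it held 3 reads over the tBOOH pools and 3 over the diquat pools, against 50 and 27 in wildtypes, and it was lower in knockout water pools at 48 and 96 hpf too, in separate libraries.

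Several collagens were lower with organic peroxide at 96 hpf in each genotype. In wildtypes 10 of 42 chains were lower with tBOOH than in water and none was higher (0.769% of all genes lower, 1.53% higher). The members' median was −0.59 and that of all genes 0.00, and all 3 tBOOH pools lay below all water pools for 23 chains (10.6% of all genes). Leaving out 1 pool gave 4 to 10 calls, the lowest without wildtype tBOOH pool 3, and 3 of the 10 chains, col7a1, col4a6 and col2a1b, were called in every such fit. A fit of only the compared groups, which leaves out the spread of the knockout pools, gave more calls (number in the closing section). This comparison shares its water libraries with the genotype difference above, so each is given by its own values.

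Type I and II chains were among the 10. col1a2 had 219, 259 and 181 with tBOOH, against 459, 411 and 365 in water (−0.91, limma adjusted p = 0.00349), and col1a1b had 311, 392 and 322, against 669, 627 and 594 (−0.89). The col1a2 call was lost without tBOOH pool 3 and the col1a1b call without tBOOH pool 1. col1a1a had 566, 676 and 461, against 930.5, 939 and 853 (−0.69 ± 0.18, limma adjusted p = 0.0387), and its call was lost in 5 of 6 fits without 1 pool. col2a1b had 139.999, 182 and 126 with tBOOH, against 323, 289 and 242 in water (−0.93 ± 0.17, limma adjusted p = 0.0012), while col2a1a did not pass (−0.62, limma adjusted p = 0.0514).

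Outside type I and II, the anchoring fibril gene had the largest change. col7a1 had 6.61, 13.1 and 11.7 with tBOOH, against 39.8, 26.7 and 45.0 in water (−1.75 ± 0.31, limma adjusted p = 0.00116). col4a6 had 58.4, 60.005 and 54.03, against 124, 115 and 109 (−1.0002 ± 0.20), and col11a1a had 171, 189 and 139.8, against 309, 291 and 283 (−0.83). col5a3b had 45.2, 57.8 and 32.8, against 132, 108 and 102 (−1.34), and the calls of col11a1a and col5a3b were lost without wildtype tBOOH pool 3. col9a1b and col16a1 fell by 1.21 and 1.005 on the log2 scale, each with calls lost in 3 of 6 such fits. Other chains stood level without passing: col4a1 averaged 42.7 with tBOOH and 42.4 in water, COL5A2 136 and 146, and col17a1a 164 and 166.

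In knockouts 12 of 42 chains were lower with tBOOH and 1 was higher (2.04% of all genes lower, 5.46% higher), with a median of −0.37. col7a1 had 1 read in each tBOOH pool and 36 reads over the water pools, 10.7-fold lower with an exact 95% counting interval of 3.38 to 54.4-fold (limma adjusted p = 6.54e-07). col1a2 had 165, 101 and 104 with tBOOH, against 237, 231 and 228 in water (−0.94 ± 0.18, limma adjusted p = 0.000728). col2a1b had 75.6, 75.9 and 71.4, against 129.5, 148 and 134 (−0.87 ± 0.17), and col4a6 had 25.7, 36.3 and 25.9, against 59.3, 63.7 and 69.2 (−1.12 ± 0.20). All tBOOH pools lay below all water pools for these 4 genes.

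The other type I genes fell as well: col1a1b had 263, 173 and 137 with tBOOH, against 303, 391 and 324 in water (−0.87), and col1a1a 283, 178 and 172, against 285, 369.7 and 339 (−0.68, limma adjusted p = 0.0183), the second call lost in 4 of 6 fits without 1 pool. The remaining falls, in col5a3b, col12a1b, COL14A1, col11a1b, col11a1a and col17a1a, were of 0.64 to 1.17 on the log2 scale, and each of these calls but that of col11a1a was lost in 3 to 5 of 6 such fits. The single rise was in COL5A2, with 51.4, 36.3 and 35.7 with tBOOH against 27.4, 25.1 and 21.2 in water (0.71 ± 0.22, limma adjusted p = 0.0408), and was lost in 5 of 6 such fits and by edgeR. Leaving out 1 pool gave 6 to 11 calls, 6 without knockout tBOOH pool 2 or water pool 3 and 8 without tBOOH pool 3 or water pool 2.

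A difference in the tBOOH response between genotypes at 96 hpf was called by limma for none of the 42 chains (4 at an unadjusted p under 0.05, none by edgeR, against 0.324% of all genes called higher). For col1a1a that difference, knockout minus wildtype, was 0.01 ± 0.26, and for col7a1 it was −0.89 ± 0.44.

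**Figure D5:**
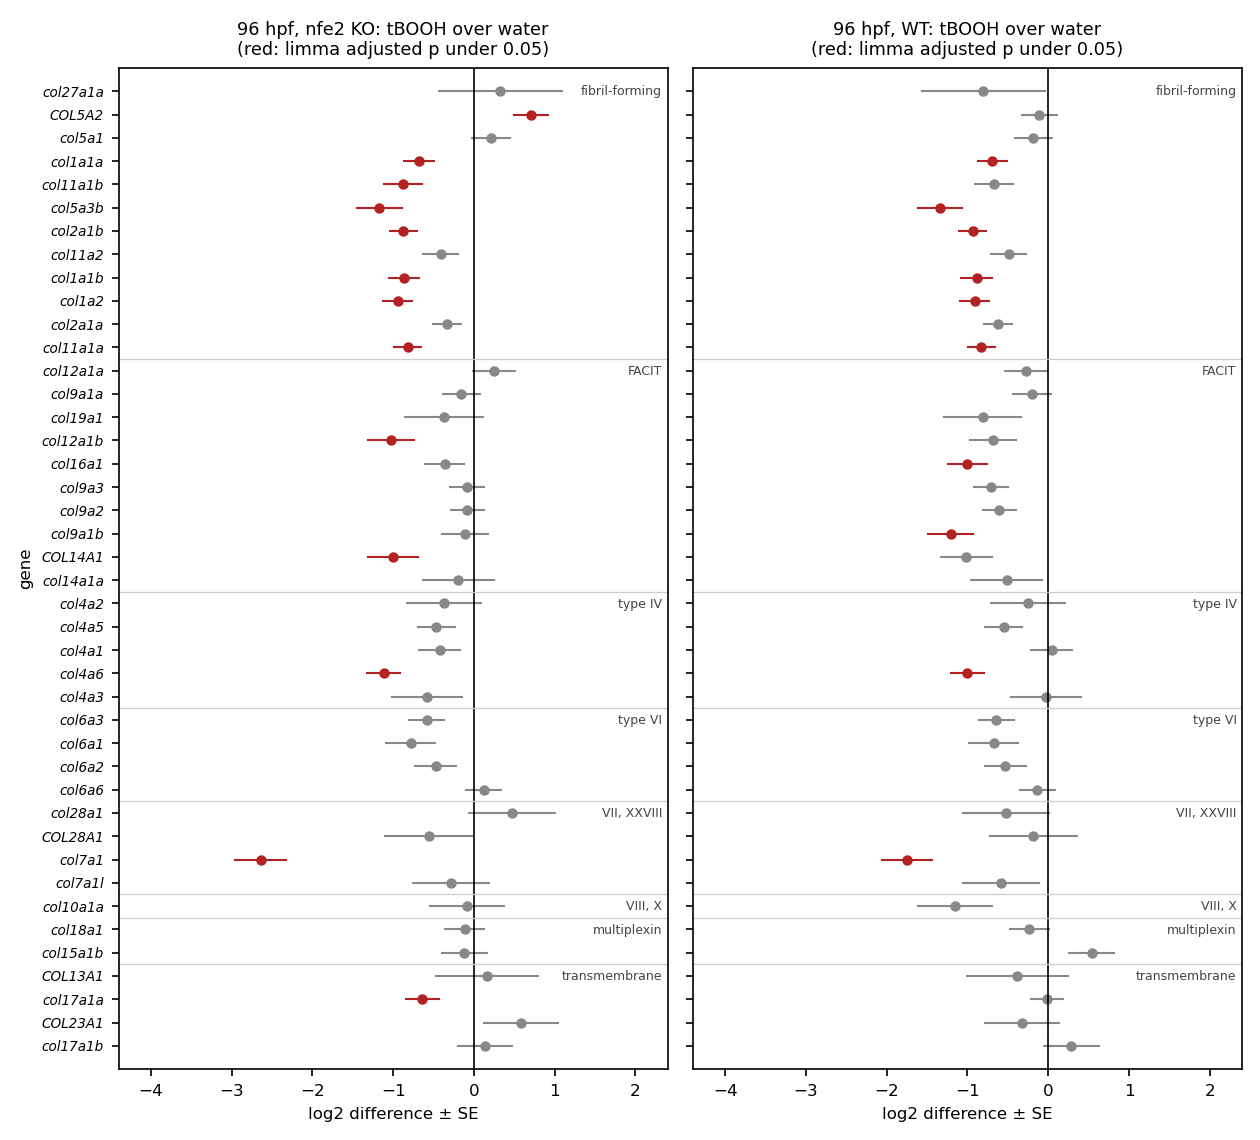
Log2 change with tBOOH over water at 96 hpf for the 42 tested collagens, knockouts in the left panel and wildtypes in the right, on log2(value + 1); bars are limma standard errors, n = 3 pools per group, and red marks an adjusted p under 0.05. Of the 42 points, 9 lie right of 0 in knockouts and 3 in wildtypes, with col7a1 at −2.64 in knockouts and −1.75 in wildtypes.

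Genes that make or break down collagen were counted beside the falls with tBOOH. Of 13 degradation genes 4 were higher in knockouts and 2 in wildtypes, where 5.46% and 1.53% of all genes were higher. Shares of all genes that were lower were 2.04% in knockouts and 0.769% in wildtypes. ctsla averaged 599 with tBOOH against 182 in water in knockouts, and 802 against 418 in wildtypes. mmp9, a matrix metalloproteinase, averaged 16.2 against 1.83 in knockouts, and 17.1 against 1.84 in wildtypes, the wildtype call lost in at least 1 fit without 1 pool. In knockouts the inhibitor gene timp2b had 39.8 against 4.04. Of 26 fibril-associated matrix proteins 2 were higher and 2 lower in knockouts, and 1 was higher in wildtypes. Fibronectin (fn1b) had 123 with tBOOH against 32.5 in water in knockouts, and 287 against 109 in wildtypes. In knockouts emilin2a was higher as well, with 36.9 against 11.3, while postnb, with 144 against 263, and matn4, with 83.7 against 143, were lower. serpinh1b averaged 31.1 against 89.3 in knockouts, where 1 of 15 folding and secretion genes was higher and 2 were lower, the sec13 fall lost in at least 1 fit without 1 pool, and limma called none of the 15 in wildtypes (2 unadjusted; edgeR none). Of 13 regulators of collagen genes 2 were higher in knockouts, 1 of these calls lost in at least 1 fit without 1 pool, and edgeR called 2 as well. In wildtypes limma called none of the 13 (3 unadjusted, edgeR none). Of 9 processing genes loxl2a was higher in wildtypes, 27.5 against 9.44, a call lost in at least 1 fit without 1 pool. Limma called none of 9 hydroxylase genes (0 unadjusted in each genotype), 7 receptor genes (1 unadjusted in knockouts, 0 in wildtypes) and 15 basement membrane partners (2 in each), and edgeR called none of them.

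Some basal epidermis markers fell with tBOOH. Among all genes 2.04% were lower and 5.46% higher in knockouts, and 0.769% lower and 1.53% higher in wildtypes. The summed level of the 14 markers was 3263, 2312 and 2159 in knockouts with tBOOH against 4328, 4616 and 3753 in water, with 1 of 12 higher and 4 lower, and 3362, 3346 and 3128 in wildtypes with tBOOH against 5464, 5468 and 5422, with 4 of 12 lower. Of these falls 2 in knockouts and 3 in wildtypes, and the 1 rise, were lost in at least 1 fit without 1 pool. Liver markers summed to 1416, 733 and 945 in knockouts with tBOOH against 519, 609 and 469 in water, with 7 of 12 higher by limma, 4 of them lost in at least 1 such fit, and 6 called by edgeR. In wildtypes they summed to 3019, 2855 and 3056 with tBOOH against 3046, 2965 and 3083 in water, with 1 of 12 higher by limma (fgg, 149 against 67.7) and 3 called by edgeR. In knockouts 1 of 4 notochord markers (ptrfb, 13.6 against 5.88), 1 of 4 endothelial markers (vsg1, 21.9 against 10.9) and 1 of 4 macrophage or neutrophil markers (mpeg1.2, 12.8 against 4.33) were higher too. The calls of fgg in wildtypes and of ptrfb, vsg1 and mpeg1.2 in knockouts were each lost in at least 1 fit without 1 pool. Limma called none of 9 cartilage markers (3 unadjusted in knockouts, 2 in wildtypes), 8 fibroblast and tendon markers (0 and 1) and 4 bone markers (1 and 2), and edgeR called none of them. The part of these tissues in the collagen falls was not tested.

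With diquat and all pools, 1 collagen call was made at 96 hpf. In wildtypes at 96 hpf limma called none of 42 chains (3 at an unadjusted p under 0.05; edgeR none, 6 unadjusted; 0.114% of all genes higher, 0.131% lower). In knockouts the one call was COL5A2, with 51.7, 63.0 and 33.8 with diquat against 27.4, 25.1 and 21.2 in water (0.95 ± 0.22, limma adjusted p = 0.0482; 0.315% of all genes higher). That call was lost in 5 of 6 fits without 1 pool and by edgeR, while without knockout diquat pool 3 there were 4 calls (share of all genes in that fit not given here). Pool 2 of that group was the highest for 64.3% of collagens (39.5% of all genes) and pool 3 the lowest for 52.4% (35.3%). Values of 36 of the 42 chains were positive in knockouts, 16 had an unadjusted p under 0.05, and all 3 diquat pools lay above all water pools for 11 (5.51% of all genes). col1a1a had 513, 467 and 553 with diquat, against 285, 369.7 and 339 in water, without passing (limma adjusted p = 0.192). The difference between genotypes in the diquat response was called by limma for none (16 unadjusted; edgeR none, 18 unadjusted; 0.00874% of all genes higher).

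At 48 hpf the oxidants gave 1 collagen call. In wildtypes with tBOOH col4a3, a type IV α3 chain, had 54.3, 64.0 and 64.3 against 25.3, 22.004 and 24.03 in water (1.32 ± 0.25, limma adjusted p = 0.0237; 0.123% of all genes higher, 0.0411% lower), and the call was lost when any of the 6 pools was left out, although edgeR also made it. All 3 tBOOH pools lay above all water pools for 15 of 42 chains (10.7% of all genes), and all 3 diquat pools did for 16 (7.72%). col2a1a was one of them, with 732, 636 and 779.6 with tBOOH and 653, 764 and 758 with diquat, against 423, 447 and 463 in water, without passing (limma adjusted p = 0.49 and 0.778). The spread in these tests is shared with the knockout pools, which stood apart at this stage. Limma called no chain with diquat in wildtypes (3 unadjusted; 0.0103% of all genes higher, 0.0308% lower), with diquat in knockouts (2 unadjusted; 0% of all genes) or with tBOOH in knockouts (3 unadjusted; 0.175% higher, 0.0206% lower), and edgeR called none in those 3 comparisons. The difference between genotypes was called for no chain in either response (1 unadjusted each; edgeR none; 0% of all genes). Without knockout tBOOH pool 1, the lowest for most collagens, 4 chains were called with tBOOH in knockouts (share of all genes in that fit not given here).

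At 2 hpf col18a1 alone passed with an oxidant. In wildtypes it had 65.5, 71.2 and 72.7 with diquat, against 46.0, 36.3 and 38.9 in water (0.78 ± 0.19, limma adjusted p = 0.0384; 0.36% of all genes higher, 0.604% lower), and in knockouts 51.4, 63.1 and 35.8 with diquat, against 73.2, 72.0 and 64.3 in water. All diquat pools lay below all water pools in knockouts and above them in wildtypes. The wildtype call was lost when any of the 6 pools was left out. The difference in response, knockout minus wildtype, was −1.29 ± 0.27 (limma adjusted p = 0.0133; 0.154% of all genes lower), and it was lost without knockout diquat pool 3 (limma adjusted p = 0.0530). Limma called no chain in the other 3 oxidant comparisons at 2 hpf, and edgeR called none in them. For tBOOH in wildtypes 3 had an unadjusted p under 0.05 (1.46% of all genes called higher, 1.36% lower), for diquat in knockouts 6 (3.11% and 0.63%), and for tBOOH in knockouts 0 (0% and 0%). The difference between genotypes in the tBOOH response was called for none (2 unadjusted; edgeR none; 0.0128% of all genes higher).

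The response to tBOOH was also compared between ages. In knockouts col7a1 had 18.2, 50.1 and 40.9 with tBOOH at 48 hpf against 24.3, 39.8 and 19.2 in water, so that its response at 96 hpf minus that at 48 hpf was −2.97 ± 0.50 (limma adjusted p = 0.000437; 0.235% of all genes lower). Without 48 hpf knockout tBOOH pool 1, which stood apart, 8 chains were called for this difference, and without 48 hpf knockout water pool 2 there were 2. The shares of all genes called in those fits are not given here. With all pools, no other chain was called by limma for an age difference in response: in wildtypes there were 4 unadjusted for diquat and 15 for tBOOH, and in knockouts 2 for diquat. edgeR called 1 chain for tBOOH in wildtypes and none for diquat.

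Chains whose genes neighbour each other were looked up in the GRCz12tu annotation, used for gene order only, since the files were made on GRCz10. Of the 60 members, 42 matched it by symbol. Over the 18 group means, the log2 levels of neighbours had Pearson correlations of 0.949 for col4a6 and col4a5 (chromosome 7), 0.902 for col4a1 and col4a2 (chromosome 9), 0.956 for col9a2 and col16a1 (chromosome 19) and 0.458 for col4a4 and col4a3 (chromosome 15). The groups share the stage course, and no p is given.

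The 2 rows that are not collagens did not follow the family. col4a3bpa had 4.22, 12.8 and 4.59 in knockouts, against 19.9, 16.9 and 22.5 in wildtypes at 2 hpf (−1.48 ± 0.39, limma adjusted p = 0.00433), and in wildtype water pools it averaged 4.59 at 48 hpf against 19.8 at 2 hpf (−1.92 ± 0.50). col4a3bpb averaged 10.04 in knockouts and 8.81 in wildtypes at 96 hpf, without passing (0.22 ± 0.48).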

How the data were processed

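Libraries of poly(A) RNA, 1 for each of 54 pools of 30 animals, were made with a strand-marking kit, per the labels' protocols. The submitters' processing notes name TopHat2 2.0.14, Bowtie2 2.2.5, SAMtools 0.1.19, HTSeq, DESeq2 1.10.1, R 3.2.3 and GRCz10, without roles. The deposited values are a signal: read counts that the authors divided by a size factor, with all 54 libraries in 1 table. Multiplying by a recovered factor (0.571 to 1.42) gave whole reads for 100% of values, within 0.01 read. In 3 libraries the factor is so near 1 that this decides little. The HTSeq strand setting is not given in the sources used here. The mitochondrial light-strand gene mt-nd6 stood above the median of the other 12 mitochondrial mRNAs in 54 of 54 libraries, and above all 12 in 44. Recovered reads had a median of 3.09% of the stated depth. Whether reads were counted on the strand opposite to the genes was not tested. The effect of strand on collagen values was not tested either, and overlapping or duplicated genes are uncertain.

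Genes with at least 10 normalised counts in at least 3 libraries were fitted on log2(value + 1) with limma 3.58.1 (R 4.3.3; trended variance, Benjamini-Hochberg adjustment over all genes), in the 18 libraries of a stage, and over all 54 for comparisons of ages. No batch is labelled. A count of 0 over a group allows up to 3 reads; floors and intervals cover counting error only. Alternatives were edgeR 4.0.16 (quasi-likelihood, on the recovered reads), TMM rescaling, a pseudocount of 5, no low-value filter, fits of only the compared groups, a replicate block and leaving out each pool. The code was tested on simulated data.

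The genes named were the type I genes, col2a1a, col2a1b, col4a1 and col4a2, every chain called within a stage, the 6 highest chains per stage, the 6 largest rises and falls between ages (at least 20 normalised counts in the higher stage), the rows that are not collagens, and up to 4 called genes per list. Other genes named for partner ratios, for neighbouring or for not passing were chosen after their values were seen. The members, the lists and the rule were chosen with earlier results of these data known. Column values not used numbered 0.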

Additional observations from a re-analysis of the deposited data

Results flagged for a closer look

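The col18a1 response to diquat at 2 hpf differed between genotypes, by −1.29 on the log2 scale (knockout minus wildtype, limma adjusted p = 0.0133), because its pools were lower with diquat than in water in knockouts and higher in wildtypes. That call was not kept in every fit without 1 pool, and the wildtype diquat call of col18a1 was kept in none. The col7a1 response to tBOOH in knockouts differed between ages, by −2.97 on the log2 scale (96 hpf minus 48 hpf, limma adjusted p = 0.000437).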

How the results depend on the processing

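No called collagen reversed its direction under any alternative. Deviations of same-numbered pools had mean correlations of 0.0377, −0.00964 and −0.000254 at 2, 48 and 96 hpf. For pools of other numbers the means were −0.0189, 0.00486 and 0.000309. A pool correlated best with its own number, 1 of 3, in 11, 4 and 8 of 18 cases. The 2 hpf values lean towards pairing by number, which was not tested. With the replicate block the 96 hpf genotype difference had 32 calls, tBOOH in knockouts at 96 hpf 11, and knockout water pools at 96 against 48 hpf 8. The block moved no count by over 1.5 times. Fitting only the compared groups gave 22 calls for tBOOH in wildtypes at 96 hpf, 19 for wildtype water at 96 against 48 hpf, 15 and 4 for the age difference in the wildtype tBOOH and diquat responses, 4 for the genotype difference at 2 hpf (of the 8 chains that passed the filter in those libraries), 3 for tBOOH in wildtypes at 48 hpf, 2 for diquat in wildtypes at 2 and 96 hpf, and 0 for diquat in knockouts at 96 hpf. That last count was also 0 with the pseudocount of 5, no filter or edgeR. A pseudocount of 5 gave 3 calls for the age difference in the knockout tBOOH response and 1 for the wildtype one, where edgeR also gave 1. Without the filter, diquat in wildtypes at 2 hpf had 0 calls and knockout water at 96 against 48 hpf 4. The cause of these changes was not tested, and the shares of all genes called under these alternatives are not given here.

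Leaving out 1 pool gave these ranges of collagen calls, given without the shares of all genes called in those fits. At 2 hpf: genotype 6 to 9, diquat in wildtypes 0 to 0, diquat in knockouts 0 to 2 (2 without knockout water pool 3), tBOOH in wildtypes 0 to 2 (2 without tBOOH pool 1) and the genotype difference in diquat response 0 to 1. At 48 hpf: genotype 1 to 12, tBOOH in wildtypes 0 to 0 and in knockouts 0 to 4. At 96 hpf: genotype 28 to 33, tBOOH in wildtypes 4 to 10 and in knockouts 6 to 11, diquat in knockouts 0 to 4 (4 without diquat pool 3) and the genotype difference in diquat response 0 to 2 (2 without knockout diquat pool 3). Between ages: 48 against 2 hpf 34 to 37 in knockouts and 39 to 41 in wildtypes, 96 against 48 hpf 1 to 6 in knockouts and 8 to 9 in wildtypes, and the age difference in the knockout tBOOH response 1 to 8 (8 without 48 hpf knockout tBOOH pool 1). The other comparisons gave 0 to 0. At this depth, chains under 10 normalised counts in all but 2 libraries could not be tested.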
